A study of Mus musculus with 36 samples.

Results

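The 6 genes described here are Parp9, Parp12 and Parp14 of the ADP-ribosyltransferase (PARP) family and Trim21, Trim25 and Trim30a of the tripartite motif (TRIM) family. They were picked by gene symbol, out of 12394 genes that the array reads with a probe set of 1 gene symbol, and all 10 probe sets that carry a member's symbol were used. All 10 passed the filter on low signal in both cell systems, and 1 more probe set, shared by Trim30d and Trim30a, was not assigned to either gene. The RNA came from primary mouse microglia, the resident macrophages of the brain, and from BV-2 cells, an immortalised mouse microglial line. Microglia came from wild-type (WT) mice, from mice without Usp18 (KO) or from carriers of the Usp18 C61A mutation, which replaces the catalytic cysteine of the protease, and the BV-2 cells had received control siRNA or siRNA against Usp18. IFN-b was added at 500 U/ml for 6 h or 24 h, or not at all (0 h), to every kind of cell. The 36 arrays formed 18 groups of 2 replicates. In the order of deposition they fell into 3 runs of equal size, run 1 with KO and WT microglia, run 2 with BV-2 cells and run 3 with C61A and a further series of WT microglia, so that KO arrays are set against run 1 WT arrays and C61A arrays against run 3 WT arrays. The sources used here do not give the meaning of the runs, the strain or age of the mice, whether animals were pooled, which cells of the KO mice lack Usp18, or how BV-2 replicates were kept apart. The titles call the replicates biological, and if some of them are technical the p-values measure only that spread.

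Type I interferons such as IFN-b bind the receptor pair IFNAR1 and IFNAR2, whose kinases JAK1 and TYK2 pass the signal on to transcription factors that bind interferon-stimulated response elements near their target genes. Usp18 is itself such a target, and it has separable functions: the protein binds IFNAR2 and dampens signalling, and its cysteine protease activity removes the ubiquitin-like protein ISG15 from other proteins. Many TRIM proteins are ubiquitin ligases and many PARP proteins attach ADP-ribose to other proteins, and members of both families belong to the antiviral programme that interferon switches on in macrophages and microglia.

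Promoter sequences are shown for the members that have one in the table used here, because the groups below differ in interferon signalling and the core of the interferon-stimulated response element can be read directly in them. Parp12, Trim21, Trim25 and Trim30a had an entry, the last with 2 start sites. Parp9 and Parp14 had none. Each stretch runs from 100 bases before to 30 bases after the annotated start, 5′ to 3′ on the gene's own strand, from RefSeq on GRCm38.p6. Capitals mark a pair of GAAA half-sites with any 2 bases between them, read on either strand, and overlapping matches run together.
Trim21, chr7:102565453-102565582, minus strand: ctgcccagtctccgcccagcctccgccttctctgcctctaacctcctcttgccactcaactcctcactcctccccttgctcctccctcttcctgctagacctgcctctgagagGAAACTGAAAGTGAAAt
Trim30a, upstream start, chr7:104465164-104465293, minus strand: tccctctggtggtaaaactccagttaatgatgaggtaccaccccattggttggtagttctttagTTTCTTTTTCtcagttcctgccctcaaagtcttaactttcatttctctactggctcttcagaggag
Trim30a, downstream start, chr7:104446096-104446225, minus strand: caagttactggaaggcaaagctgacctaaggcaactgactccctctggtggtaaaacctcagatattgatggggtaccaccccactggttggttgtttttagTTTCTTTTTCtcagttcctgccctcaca
Parp12, chr6:39118320-39118449, minus strand: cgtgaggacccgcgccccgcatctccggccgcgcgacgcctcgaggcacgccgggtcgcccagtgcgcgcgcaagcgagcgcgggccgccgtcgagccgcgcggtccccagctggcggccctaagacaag
Trim25, chr11:88999303-88999432, plus strand: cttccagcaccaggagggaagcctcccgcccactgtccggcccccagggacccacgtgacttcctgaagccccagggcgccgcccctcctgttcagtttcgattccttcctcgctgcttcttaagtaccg
In the whole 300-base windows, which reach from 250 bases before to 50 after the start, Trim21 held 2 overlapping matches, at positions 14 to 23 and 20 to 29 after the start. Trim30a held 1 match at each start, on the opposite strand, at -36 to -27 and at 3 to 12. No letters of this form stood in the windows of Parp12 and Trim25. Of all 32851 windows in the table, 1131 (3.44%) held a match. The spaced palindrome TTCNNNGAA, the core of the gamma-activated site, stood in 8.30% of all windows and in none of the 5 windows of the members. A match is a description of the letters and not a measured binding site.

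Values are log2 intensities as deposited, on arrays whose medians ran from 5.59 to 5.83. A gene is said to rise or fall where limma's adjusted p was under 0.05 (Benjamini-Hochberg over all genes tested, 7960 in microglia and 7163 in BV-2 cells), changes are log2 differences, and the figure after ± is a standard error unless SD is written. The level of Usp18 bears on the KO and WT labels of run 1 and not on the C61A mutation, whose transcript is still made: it lay at 4.40 and 3.77 in untreated KO arrays and at 5.68 and 5.99 in untreated WT arrays of run 1, and the difference of KO from WT was -6.35 ± 0.91 after 6 h of IFN-b (adjusted p = 0.00226) and -4.99 ± 0.91 after 24 h (adjusted p = 0.00147). The sources used here do not say whether its probe set lies in the deleted stretch. The 2 siRNAs left Usp18 RNA in BV-2 cells at levels that limma did not separate (-0.02 untreated, then -0.29, then -0.34, the lowest adjusted p being 0.632). A lower level of the transcript was therefore not shown. At 6 h the Usp18 siRNA arrays read 11.10 and 12.49 and the control arrays 12.15 and 12.04. The 12.49 comes from replicate 2, an array in doubt that is named next, and the size at 6 h depends on it. There were 3 arrays that stood apart from their replicate: the array labelled untreated WT replicate 1 of run 3, where Usp18 lay at 12.97, the array labelled C61A 6 h replicate 2, and the array labelled Usp18 siRNA 6 h replicate 2. They stayed in the tests under their labels, values without all 3 are given where they change a call or a size, and directions that rest on them hold only if the labels are right. Over 9 microglial markers the mean lay at 9.17 to 10.64 in all groups of primary microglia and at 6.92 to 7.85 in BV-2 arrays, except 9.42 on the Usp18 siRNA 6 h replicate 2. The mean of 6 astrocyte markers lay at 4.77 to 6.31 in run 1 and at 5.35 to 9.24 in run 3, so primary cultures of run 3 held RNA of such genes too, and fewer cells of a type cannot be told apart from less RNA per cell.

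In WT microglia IFN-b raised 5 of the 6 members after 6 h, all 3 PARP genes and 2 of the TRIM genes, between 3.30-fold and 5.66-fold. Among all genes tested 7.59% rose in this comparison. The median change of the members was 2.22, against -0.12 over all genes tested. Trim25 did not pass by the probe set that read it.

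Parp9, a macrodomain protein that works in a complex with the ubiquitin ligase Dtx3l, lay at 8.10 and 8.41 in the untreated WT arrays of run 1, at 11.23 and 11.57 after 6 h and at 10.63 and 10.89 after 24 h. In run 3 the same groups read 11.22 and 8.22, then 11.03 and 11.03, then 10.76 and 10.73. The treated arrays of run 1 all stood above the untreated ones, whereas in run 3 the first untreated array was as high as the treated arrays and the groups overlapped. Parp12, a mono-ADP-ribosyltransferase with zinc fingers that restricts several RNA viruses, went from 8.15 and 8.53 to 11.64 and 11.74 and to 10.80 and 10.87 in run 1. Its values in run 3 were 11.24 and 8.46 untreated, 11.16 and 11.08 at 6 h and 11.02 and 10.87 at 24 h. The overlap again came from the first untreated array of run 3. Parp14, a macrodomain-bearing mono-ADP-ribosyltransferase known as a cofactor of STAT6 in mouse lymphocytes, read 7.95 and 8.49, then 11.39 and 11.77, then 10.80 and 11.21 in run 1. In run 3 it read 11.83 and 8.19, then 11.61 and 11.69, then 11.46 and 11.01. Here that untreated array was the highest of the 12 WT arrays.

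At 6 h, over both runs, Parp12 rose by 2.31 ± 0.49 (adjusted p = 0.0082), Parp9 by 2.23 ± 0.53 (adjusted p = 0.0135) and Parp14 by 2.50 ± 0.62 (adjusted p = 0.0161). The 3 changes were close to each other, and each was larger in run 1 alone (3.35, 3.14 and 3.36) than in run 3 alone (1.27, 1.31 and 1.64). The difference between the runs itself did not pass for any of the 6 members at 6 h or at 24 h, where 0.791% and 0% of all genes were called (limma, with 501 genes at an unadjusted p under 0.05 at 24 h).

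Trim21, a ubiquitin ligase that also binds the constant part of antibodies on viruses that have entered the cell, went from 8.02 and 8.13 to 10.19 and 10.45 at 6 h and to 9.59 and 9.65 at 24 h in run 1. In run 3 it read 10.80 and 7.90, then 10.66 and 10.46, then 10.43 and 10.17. Groups were apart in run 1 and overlapped in run 3 through the same untreated array. Trim30a, a rodent TRIM protein known in mouse macrophages as a negative regulator of NF-kappaB signalling, read 8.23 and 8.57, then 11.21 and 11.42, then 10.62 and 10.79 in run 1. In run 3 its values were 11.04 and 8.20, then 11.15 and 11.08, then 10.92 and 10.95. By this probe set the 6 h arrays of Trim30a lay above every untreated array of both runs, if narrowly. By its other probe set the first untreated array of run 3 (11.16) lay above all 6 h arrays (10.93 to 11.02). Trim25, the ubiquitin ligase that activates the RNA sensor RIG-I, read 9.56 and 9.71, then 10.19 and 10.15, then 10.58 and 10.55 in run 1, and 10.60 and 9.16, then 10.21 and 10.56, then 10.51 and 10.10 in run 3. Its changes were the smallest of the 6, and its groups overlapped in run 3.

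At 6 h Trim30a rose by 2.20 ± 0.48 (adjusted p = 0.00966) and Trim21 by 1.72 ± 0.51 (adjusted p = 0.0357), while Trim25 changed by 0.52 ± 0.25 (95% interval -0.02 to 1.05, adjusted p = 0.165). In run 1 alone 5 members passed at 6 h, again all but Trim25, beside 10.8% of all genes, and in run 3 alone no member passed, beside 0.0126% of all genes (1 gene, with 194 at an unadjusted p under 0.05). Without the 3 arrays in doubt the 6 h changes ran from 0.88 (Trim25) to 3.41 (Parp14), and calls were added at 6 h and at 24 h. As those arrays were chosen for values that include the members, the larger changes and smaller spread follow from the choice. The added calls are no support. Leaving out 1 array at a time left 2 calls (without the second untreated array of run 3 or the second 6 h array of run 1), 3 calls (without the first untreated array of run 1 or the first 6 h array of run 3), 4 calls (without the second untreated array of run 1, the first 6 h array of run 1 or the second 6 h array of run 3) or 6 calls (without the first untreated array of run 3). Parp12 and Trim30a passed in all 8 of these fits and Trim21 in 1.

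**Figure D1:**
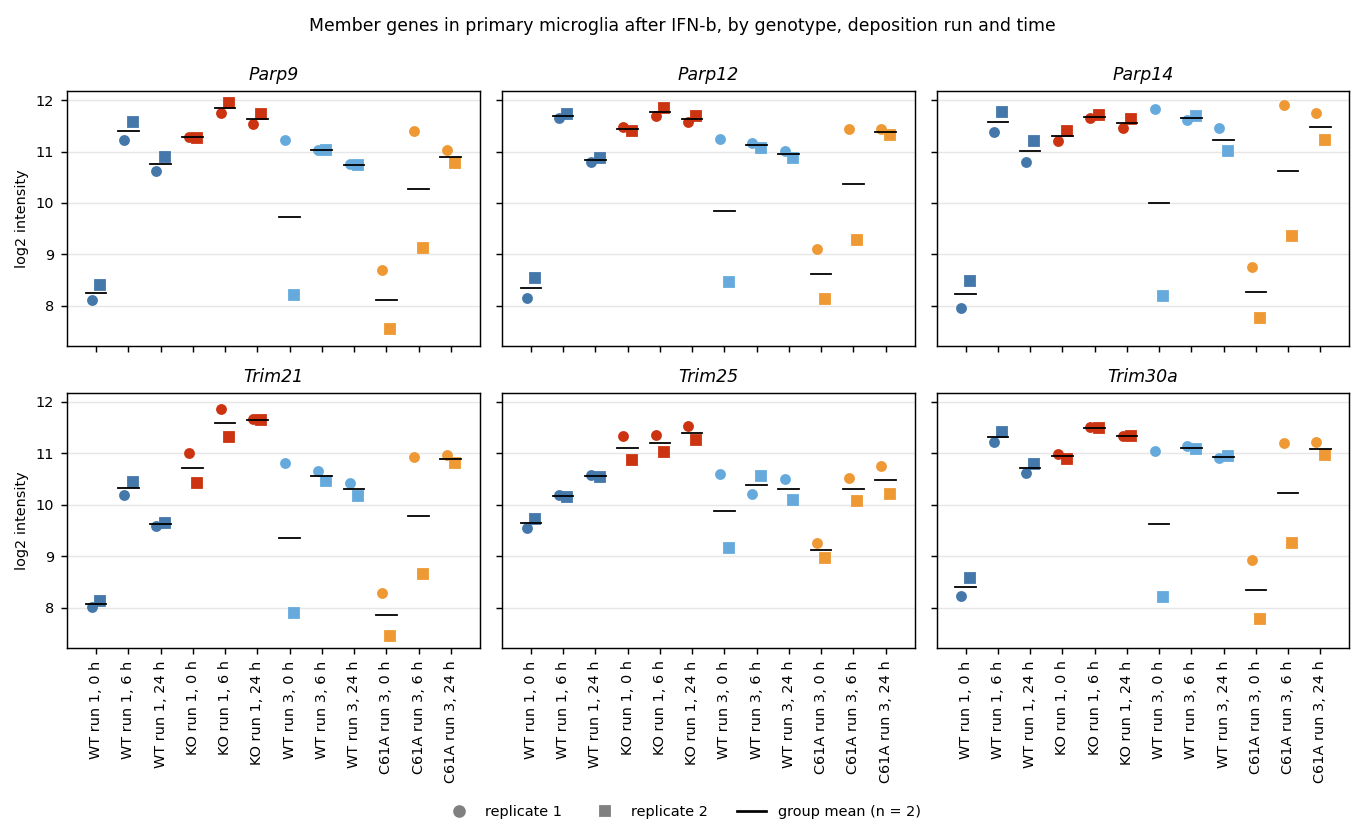
Log2 intensity (vertical axes) of the 6 members on the 24 arrays of primary microglia, by genotype, deposition run and time of IFN-b. Circles are replicate 1, squares replicate 2, and black lines are group means of 2 arrays. Untreated KO arrays of Parp9 sit at 11.29 and 11.27, above both untreated WT arrays of run 1, and the first untreated WT array of run 3 (11.22) sits far from its replicate (8.22).

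After 24 h all 6 members were still higher than untreated in WT, with changes from 0.68 (Trim25) to 2.01 (Parp14), but none passed over all genes. Adjusted p ranged from 0.0628 (Trim30a) to 0.222 (Trim21), each had an unadjusted p under 0.05, and 2.02% of all genes rose. WT numbers marked arrays that deviated together across times, and with the culture as a random block 5 of the 6 passed at 24 h: Trim30a (adjusted p = 0.00913), Parp12 (0.00983), Parp9 (0.0163), Parp14 (0.0171) and Trim25 (0.0423), with Trim21 at 0.06. Without the first untreated array of run 3 the changes ran from 1.04 to 2.92. Leaving out this array, doubted for values that include the members, raises them by that choice. Run 1 alone gave no call among the members (1.63% of all genes rose), with changes from 0.93 (Trim25) to 2.78 (Parp14), and run 3 alone gave none either (0.0754% of all genes were called). Between 6 h and 24 h no member passed in WT, KO or C61A microglia. The share of all genes called there was 5.45% in WT, 3.67% in KO and 0.528% in C61A. The changes from 6 h to 24 h in WT ran from -0.51 (Parp12) to 0.16 (Trim25), with 95% intervals between -1.81 and 0.82.

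Without any added interferon, all 6 members were higher in KO than in WT microglia, between 2.78-fold (Trim25) and 8.59-fold (Parp12). Untreated KO arrays read 11.29 and 11.27 for Parp9, 11.49 and 11.40 for Parp12, and 11.20 and 11.41 for Parp14. Those are near the levels that WT arrays of run 1 showed after 6 h of IFN-b, and far above the untreated WT arrays. The untreated KO arrays read 11.02 and 10.42 for Trim21, 11.34 and 10.87 for Trim25, and 10.99 and 10.89 for Trim30a. For each of the 6 members both KO arrays lay above both WT arrays of the run. Among all genes 8.0% rose in untreated KO cells.

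Parp12 rose by 3.10 ± 0.69 (adjusted p = 0.00906), Parp9 by 3.02 ± 0.75 (adjusted p = 0.0151) and Parp14 by 3.08 ± 0.87 (adjusted p = 0.0275) in untreated KO against WT arrays. Trim25 rose by 1.47 ± 0.35 (adjusted p = 0.0131), Trim30a by 2.54 ± 0.69 (adjusted p = 0.0228) and Trim21 by 2.64 ± 0.73 (adjusted p = 0.0247). Their median was 2.83, against -0.10 over all genes tested. With 1 array left out, which leaves a group with a single array, the changes stayed between 1.24 and 3.35 but few calls did: 4 without KO replicate 2, and 0 without KO replicate 1 or either untreated WT array of run 1 (adjusted p from 0.05 to 0.19). Without the arrays in doubt, none of which enters these means, the spread was smaller. As those arrays were chosen for values that include the members, this smaller spread follows from the choice and adds no support. Over 3 monocyte and granulocyte markers the mean lay at 4.80 to 5.53 in untreated KO arrays and at 3.81 to 4.09 in the WT arrays, with 1 of 2 tested markers higher in KO. Over 5 oligodendrocyte markers it lay at 6.62 to 7.16 in KO and at 5.88 to 6.45 in WT arrays, with 1 of 4 tested higher in KO. The mean of the 9 microglial markers lay at 10.05 to 10.45 in KO and at 10.48 to 10.63 in WT arrays, with 1 higher and 1 lower in KO. The part of these lists in the result was not tested.

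After IFN-b the difference between the genotypes was small for the PARP genes and Trim30a, and it was called for Trim21 alone, at 24 h. KO arrays read 11.75 and 11.95 at 6 h and 11.54 and 11.73 at 24 h for Parp9, 11.69 and 11.84 and then 11.57 and 11.70 for Parp12, and 11.65 and 11.71 and then 11.46 and 11.64 for Parp14. They read 11.51 and 11.49 and then 11.34 and 11.33 for Trim30a. Against the treated WT arrays of run 1 the means of these 4 genes differed by 0.08 (Parp12) to 0.45 (Parp9) at 6 h, where the arrays of Parp12 and Parp14 overlapped, and by 0.54 (Parp14) to 0.88 (Parp9) at 24 h, where none did. By the other probe set of Trim30a the 6 h arrays overlapped too (11.71 and 10.71 in KO, 11.02 and 10.96 in WT). Trim21 read 11.86 and 11.33 at 6 h and 11.67 and 11.65 at 24 h in KO cells, and Trim25 11.36 and 11.03 and then 11.54 and 11.27. At both times the KO arrays of these 2 genes stood above the WT arrays of run 1.

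Trim21 was the 1 member that passed between KO and WT at 24 h, higher by 2.04 ± 0.73 (adjusted p = 0.0473), beside 11.3% of all genes that rose. The call was lost without any 1 of the 4 arrays behind it (change from 2.01 to 2.06) and with the culture as a random block (adjusted p = 0.0528). It held without the arrays in doubt, whose choice narrows the spread. At 6 h no member passed, beside 2.88% of all genes that rose, with Trim21 at 1.27 ± 0.73 (adjusted p = 0.303) and Trim25 at 1.03 ± 0.35 (adjusted p = 0.0858). Without the arrays in doubt, none of which enters these means, Trim21 and Trim25 passed at 6 h, and Parp9, Parp12 and Trim25 also at 24 h. As those arrays were chosen for values that include the members, these added calls follow from the choice and are no support. The mean of the microglial markers was 9.62 to 9.78 in KO and 10.57 to 10.65 in WT arrays at 24 h, with 2 of 9 lower in KO at both 6 h and 24 h. The monocyte and granulocyte mean was 5.58 to 5.89 in KO and 3.34 to 3.61 in WT arrays at 24 h, with 1 of 2 tested markers higher in KO at both times. Their part in the result was not tested.

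In KO cells IFN-b moved the members little from their high start. By the probe sets used above, the change at 6 h ran from 0.09 (Trim25) to 0.87 (Trim21). At 24 h it ran from 0.19 (Parp12) to 0.94 (Trim21), and the 95% intervals lay between -1.61 and 2.49. At 6 h the other probe set of Trim21 read 1.08 ± 0.81. The 2 others of Trim25 read 0.13 ± 0.34 and 0.89 ± 0.60, and none of these passed. No member passed at either time (lowest adjusted p = 0.488), beside 2.89% and 1.73% of all genes that rose. Without the arrays in doubt Trim21 passed at 6 h with the same change (adjusted p = 0.0439) and stood at 0.0541 at 24 h. By the probe sets used above, all 6 changes were above 0 at both times, and outside Trim25 the treated KO arrays lay above the untreated ones. By the other probe set of Trim30a they overlapped. It read 11.28 and 9.96 untreated, 11.71 and 10.71 at 6 h and 11.26 and 10.68 at 24 h. Set against these, the difference between the KO and the WT response of run 1 was negative for all 6 members, from -3.03 ± 0.97 (Parp12) to -0.45 ± 0.50 (Trim25) at 6 h and from -2.54 ± 1.23 (Parp14) to -0.61 ± 1.03 (Trim21) at 24 h, and no member passed (lowest adjusted p = 0.162), where 1.14% and 0.716% of all genes were called. Without the arrays in doubt, none of which enters these means, Parp9, Parp12, Parp14 and Trim30a passed at both times with the same changes. Trim21 (-1.37 at 6 h) and Trim25 did not. The smaller spread of that fit follows from the choice of arrays, here and for the KO response above. These calls are therefore no support.

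**Figure D2:**
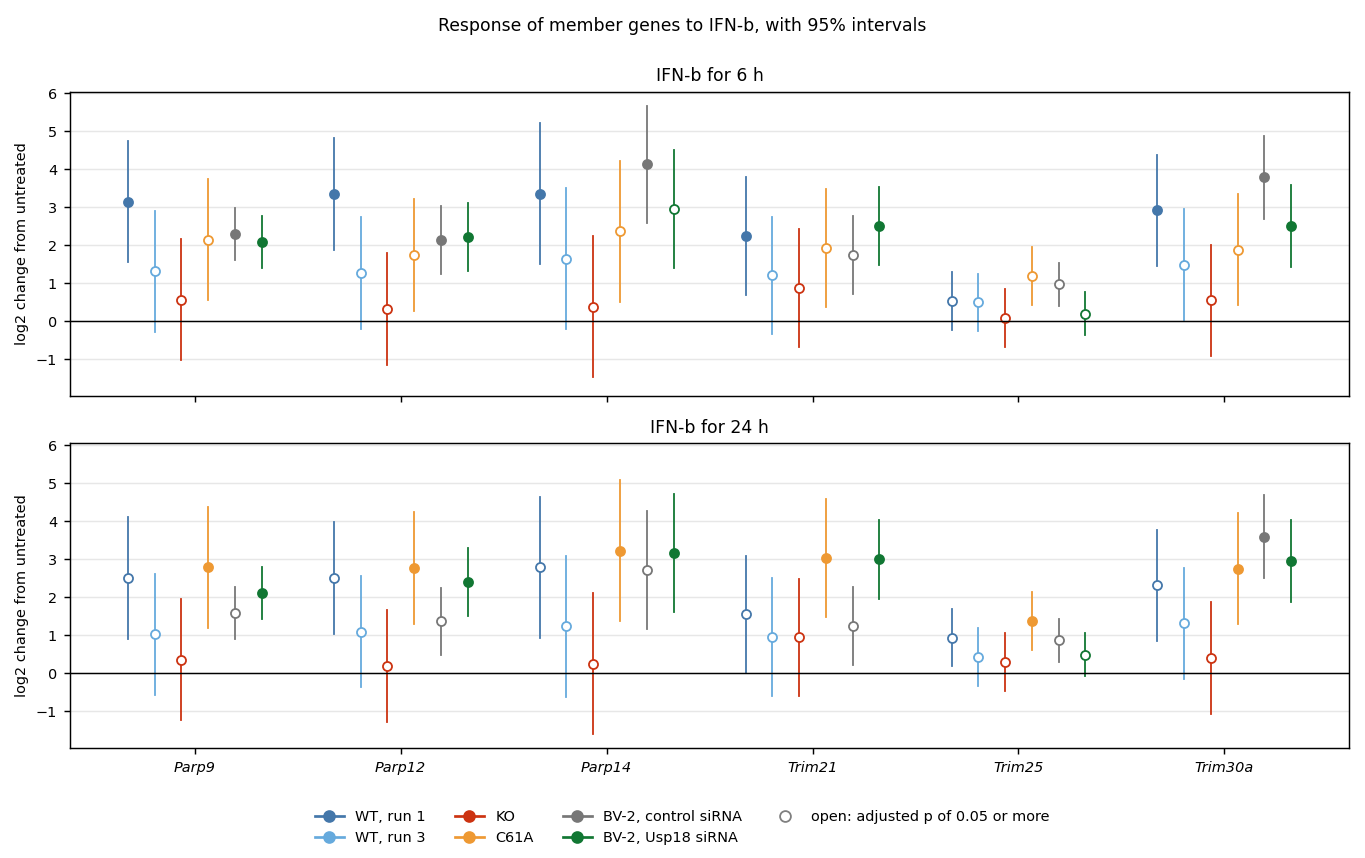
Response of the 6 members to IFN-b as the log2 change from untreated cells of the same kind (vertical axes), after 6 h (top) and 24 h (bottom). Points are limma estimates, vertical lines 95% intervals, and filled points have an adjusted p under 0.05. The 2 WT runs are drawn as separate points. Parp12 sits at 0.33 in KO cells at 6 h and at 3.35 (run 1) and 1.27 (run 3) in WT cells, and no KO point is filled.

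C61A microglia, whose Usp18 protein is made without protease activity, did not show the raised level of untreated KO cells. Untreated C61A arrays read 8.70 and 7.54 for Parp9, 9.11 and 8.12 for Parp12, 8.76 and 7.76 for Parp14, 8.28 and 7.44 for Trim21, 9.26 and 8.97 for Trim25 and 8.92 and 7.78 for Trim30a. Their second replicate was the lower one for every member. The C61A values spanned those of the second untreated WT array of run 3 for every member, and the groups overlapped for all 6 because the first WT array lay higher.

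Against WT of run 3 the untreated C61A arrays gave differences from -1.75 (Parp14) to -0.77 (Trim25), and no member passed, beside 0.0126% of all genes. The WT group holds the array labelled untreated replicate 1. Without it the differences ran from -0.10 to 0.16, and without the other WT array they ran from -3.57 to -1.49 and all 6 passed, lower in C61A (adjusted p from 0.0278 to 0.0317). At 6 h the differences ran from -1.02 (Parp14) to -0.08 (Trim25), beside 0.0126% of all genes, and at 24 h from 0.16 to 0.59 (Trim21), beside 0.0251%. Their 95% intervals reached from -2.88 to 0.84 at 6 h and from -1.61 to 2.14 at 24 h. Without the C61A array in doubt the 6 h differences were 0.09 to 0.38.

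Given IFN-b, the C61A arrays read 11.41 and 9.12 at 6 h and 11.02 and 10.78 at 24 h for Parp9, 11.43 and 9.29 and then 11.44 and 11.33 for Parp12, and 11.90 and 9.36 and then 11.74 and 11.23 for Parp14. For Trim21 they read 10.93 and 8.65 and then 10.97 and 10.81, for Trim25 10.53 and 10.08 and then 10.75 and 10.22, and for Trim30a 11.21 and 9.25 and then 11.21 and 10.97. At 24 h all treated arrays stood above the untreated ones, and at 6 h the second array lay far below the first for every member but Trim25. At 24 h all 6 members rose, from 1.37 ± 0.35 for Trim25 (adjusted p = 0.0277) to 3.23 ± 0.87 for Parp14 (adjusted p = 0.0325), beside 5.46% of all genes. Trim21 rose by 3.03 ± 0.73 (adjusted p = 0.0215), Parp9 by 2.78 ± 0.75, Parp12 by 2.77 ± 0.69 and Trim30a by 2.75 ± 0.69. In the same comparison 3 of 9 microglial markers fell and 1 rose, their mean going from 9.71 to 9.89 on the untreated arrays to 9.17 on both 24 h arrays, and the part of this in the result was not tested.

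None of the 6 calls held without any 1 of the 4 arrays, C61A untreated replicate 1 or 2 or 24 h replicate 1 or 2, where the changes were 1.11 to 3.72 and the adjusted p 0.0515 to 0.186. At 6 h the changes were 1.19 to 2.37 and none passed (lowest adjusted p = 0.734, unadjusted p under 0.05 for 6 of 6), beside 0.0503% of all genes that rose. Without the arrays in doubt 1 C61A array was left at 6 h, and the changes at 6 h were 1.41 (Trim25) to 3.64 (Parp14). The responses of C61A and WT cells of run 3 were not distinguished: limma called 0% of all genes at 6 h and 0% at 24 h, with 26 and 497 genes at an unadjusted p under 0.05, and members differed by 0.39 to 0.83 at 6 h and by 0.95 to 2.08 at 24 h, with 95% intervals from -1.90 to 4.63. These sizes rest on the untreated WT arrays of run 3. Without the first of them, the array in doubt, the differences were -1.09 to -0.03 at 6 h and 0.02 to 0.63 at 24 h, and without the second they were 1.41 to 2.55 at 6 h and 1.67 to 3.82 at 24 h (adjusted p from 0.0508 to 0.0584). Without all 3 arrays in doubt they were -0.05 (Trim30a) to 0.47 (Parp9) at 6 h and 0.02 (Trim30a) to 0.63 (Trim21) at 24 h, and none passed.

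The KO effect and the C61A effect, each against WT of its own run, differed for all 6 members in untreated cells, beside 7.55% of all genes. The KO effect was higher by 4.34 ± 0.97 for Parp12 (adjusted p = 0.013), 4.62 ± 1.05 for Parp9 (adjusted p = 0.014), 4.83 ± 1.23 for Parp14 (adjusted p = 0.0215), 4.13 ± 1.03 for Trim21 (adjusted p = 0.0197), 2.24 ± 0.50 for Trim25 (adjusted p = 0.0127) and 3.82 ± 0.97 for Trim30a (adjusted p = 0.0212). Part of these sizes comes from the untreated WT array in doubt. Without the 3 arrays in doubt the differences were 1.52 (Trim25) to 3.12 (Parp9). The choice of arrays narrows the spread in that fit, so its calls add no support. Leaving out single arrays left 6 calls without C61A replicate 1, KO replicate 2 or WT replicate 2 of run 3, 3 calls without C61A replicate 2 or either WT array of run 1, 2 calls without WT replicate 1 of run 3 and 0 calls without KO replicate 1 (adjusted p from 0.0546 to 0.0885). At 6 h and 24 h no member passed, beside 0.817% and 3.10% of all genes. Trim21 (1.45 at 24 h) passed without the 3 arrays in doubt, with the same limit. As genotype and run change together here, a difference between the mutants that is due to the runs is removed only as far as the WT arrays of each run measure it.

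**Figure D3:**
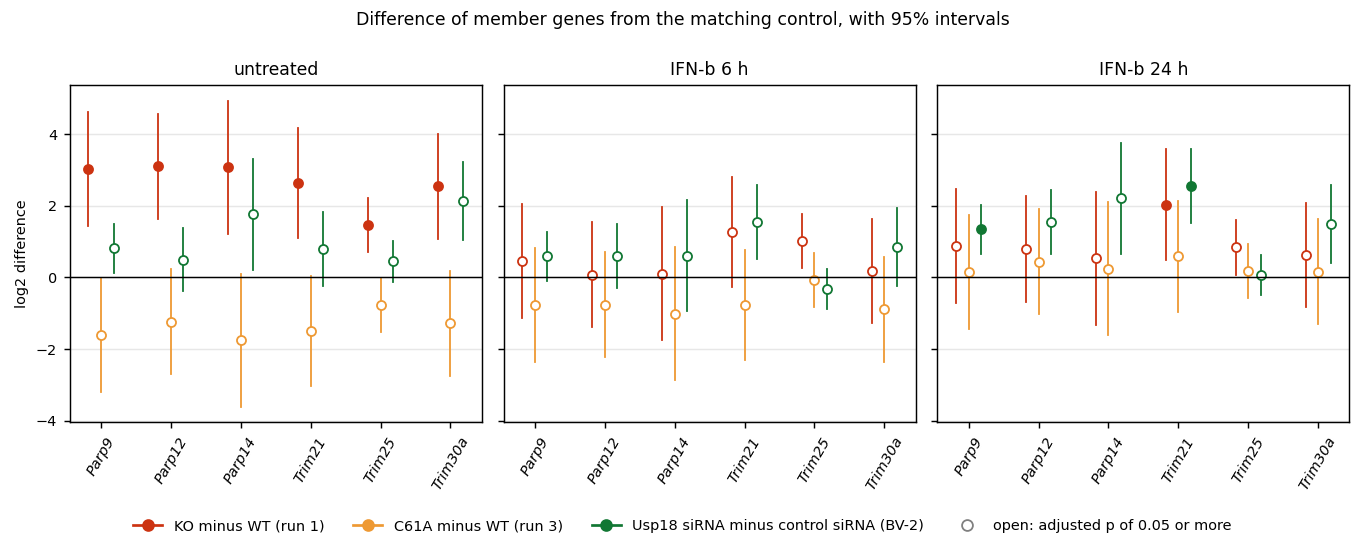
Log2 difference of each member from its control (vertical axes) in untreated cells and after 6 h and 24 h of IFN-b. Points are limma estimates of KO minus WT of run 1, C61A minus WT of run 3 and Usp18 siRNA minus control siRNA in BV-2 cells, with 95% intervals, filled where the adjusted p was under 0.05. In untreated cells the 6 KO points lie between 1.47 and 3.10 and the C61A points between -1.75 and -0.77.

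BV-2 cells given control siRNA raised 4 of the 6 members after 6 h of IFN-b, among them Parp14 by 17.5-fold and Trim30a by 13.8-fold, beside 0.991% of all genes that rose. Parp14 started low, at 5.41 and 6.59, and reached 10.23 and 10.02 at 6 h and 8.58 and 8.84 at 24 h. Trim30a, read here by its other probe set, started at 5.04 and 5.69 and reached 9.33 and 8.98 and then 8.89 and 9.03. For both genes the untreated arrays lay near or below the array median, where the array's floor can limit how large a change is read. Parp9 went from 7.60 and 7.76 to 9.99 and 9.98 and to 9.16 and 9.35, and Parp12 from 7.97 and 8.27 to 10.02 and 10.48 and to 9.43 and 9.52. Trim21 read 6.07 and 6.41, then 8.04 and 7.93, then 7.38 and 7.57. Trim25 read 10.98 and 10.85, then 12.18 and 11.58, then 11.80 and 11.75, all above its highest WT microglia array (10.60). Treated and untreated arrays did not overlap for any member at either time.

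At 6 h the control cells raised Parp14 by 4.13 ± 0.69 (adjusted p = 0.029), Trim30a by 3.79 ± 0.48 (adjusted p = 0.00991), Parp9 by 2.30 ± 0.30 (adjusted p = 0.0105) and Parp12 by 2.13 ± 0.39 (adjusted p = 0.0434). Trim21, at 1.75 ± 0.46 (adjusted p = 0.227), and Trim25, at 0.97 ± 0.25 (adjusted p = 0.215), did not pass. At 24 h Trim30a alone passed, by 3.59 ± 0.48 (adjusted p = 0.017), beside 0.503% of all genes that rose, and the other 5 changed by 0.86 (Trim25) to 2.71 (Parp14). No call at 6 h or at 24 h held without any 1 of the control arrays behind it, untreated replicate 1 or 2 or treated replicate 1 or 2, with changes of Trim30a between 3.27 and 4.11 and of Parp14 at 6 h between 3.54 and 4.72. With the replicate number or the culture as a block, 9 of the 12 changes at 6 h and 24 h passed, against 5 without it; 2 pairs of numbers only hint that the numbers mark cultures.

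In cells given Usp18 siRNA the untreated arrays read 6.69 and 8.84 for Parp14 and 6.83 and 8.17 for Trim30a, 8.10 and 8.88 for Parp9, 8.09 and 9.14 for Parp12, 6.83 and 7.23 for Trim21 and 11.18 and 11.54 for Trim25. For 5 members both arrays lay above both control arrays, Parp12 being the exception, and the second replicate was the higher one for every member. After 6 h they read 10.31 and 10.85 for Parp9, 10.61 and 11.07 for Parp12, 10.20 and 11.26 for Parp14, 8.90 and 10.19 for Trim21, 11.82 and 11.30 for Trim25 and 9.39 and 10.62 for Trim30a. The second of these is the array that carried microglial genes. At 24 h the values were 10.27 and 10.93 for Parp9, 10.54 and 11.50 for Parp12, 10.38 and 11.47 for Parp14, 9.40 and 10.64 for Trim21, 11.97 and 11.71 for Trim25 and 10.28 and 10.62 for Trim30a. All treated arrays stood above all untreated arrays of this siRNA except for Trim25 at 6 h.

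With Usp18 siRNA 4 members rose at 6 h (1.02% of all genes rose) and 5 at 24 h (6.62%). At 6 h Trim21 rose by 2.51 ± 0.46 (adjusted p = 0.0365), Trim30a by 2.51 ± 0.48 (adjusted p = 0.0413), Parp12 by 2.23 ± 0.39 (adjusted p = 0.0342) and Parp9 by 2.09 ± 0.30 (adjusted p = 0.0185), and Parp14 stood at 2.96 ± 0.69 (adjusted p = 0.0608). These 4 calls were lost without the array in doubt and without the first untreated array. Without the second untreated array Trim21 was lost and Parp14 was added. Without the first 6 h array, which leaves only the array in doubt at 6 h, no call was lost and Parp14 was added. Each of these fits leaves a group with 1 array, and the 4 changes ran from 1.69 (Parp9) to 3.18 (Trim30a) in them. At 24 h Parp9 rose by 2.10 ± 0.30 (adjusted p = 0.00554), Trim21 by 2.99 ± 0.46 (0.00668), Trim30a by 2.95 ± 0.48 (0.00859), Parp12 by 2.40 ± 0.39 (0.00872) and Parp14 by 3.16 ± 0.69 (0.0204), while Trim25 changed by 0.48 ± 0.25 (adjusted p = 0.208). Without the first untreated array none of the 5 passed and without the second 24 h array 2 did, while 5 passed without either of the other arrays.

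Between the siRNAs Trim21 and Parp9 differed at 24 h, beside 3.07% of all genes that rose. Trim21 was higher with Usp18 siRNA by 2.55 ± 0.46 (adjusted p = 0.0262) and Parp9 by 1.34 ± 0.30 (adjusted p = 0.0423). Parp12 (1.54, adjusted p = 0.0539), Parp14 (2.22, adjusted p = 0.0817) and Trim30a (1.49, adjusted p = 0.0896) did not pass, and Trim25 differed by 0.06 ± 0.25 (95% interval -0.50 to 0.63). With the replicate number as a block all of these but Trim25 passed at 24 h, 5 against 2, with Parp12 at an adjusted p of 0.00728, Parp14 at 0.0166 and Trim30a at 0.0281. With the culture as a random block Parp12 was added (adjusted p = 0.0354), as it was without the array in doubt (adjusted p = 0.0478). Neither call held without the first or the second control array or without the second Usp18 siRNA array, and 4 members passed without the first Usp18 siRNA array. The mean of the 3 monocyte and granulocyte markers was 4.99 to 6.00 with Usp18 siRNA and 4.16 to 4.45 with control siRNA at 24 h, and its part in the result was not tested. In untreated cells and at 6 h limma called 0% and 0% of all genes between the siRNAs, with 176 and 1007 genes at an unadjusted p under 0.05. The largest untreated difference among the members was 2.13 ± 0.48 for Trim30a (95% interval 1.05 to 3.22, adjusted p = 0.688), and the 6 h differences ran from -0.32 (Trim25) to 1.55 (Trim21, called without the first Usp18 siRNA array at 6 h, 2.20, adjusted p = 0.0361). The responses to IFN-b did not differ between the siRNAs for any member, beside 0% of all genes at 6 h (244 at an unadjusted p under 0.05) and 0.0279% at 24 h. Trim21 had the largest difference in response at 24 h, 1.76 ± 0.65 (95% interval 0.30 to 3.21, adjusted p = 0.524).

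**Figure D4:**
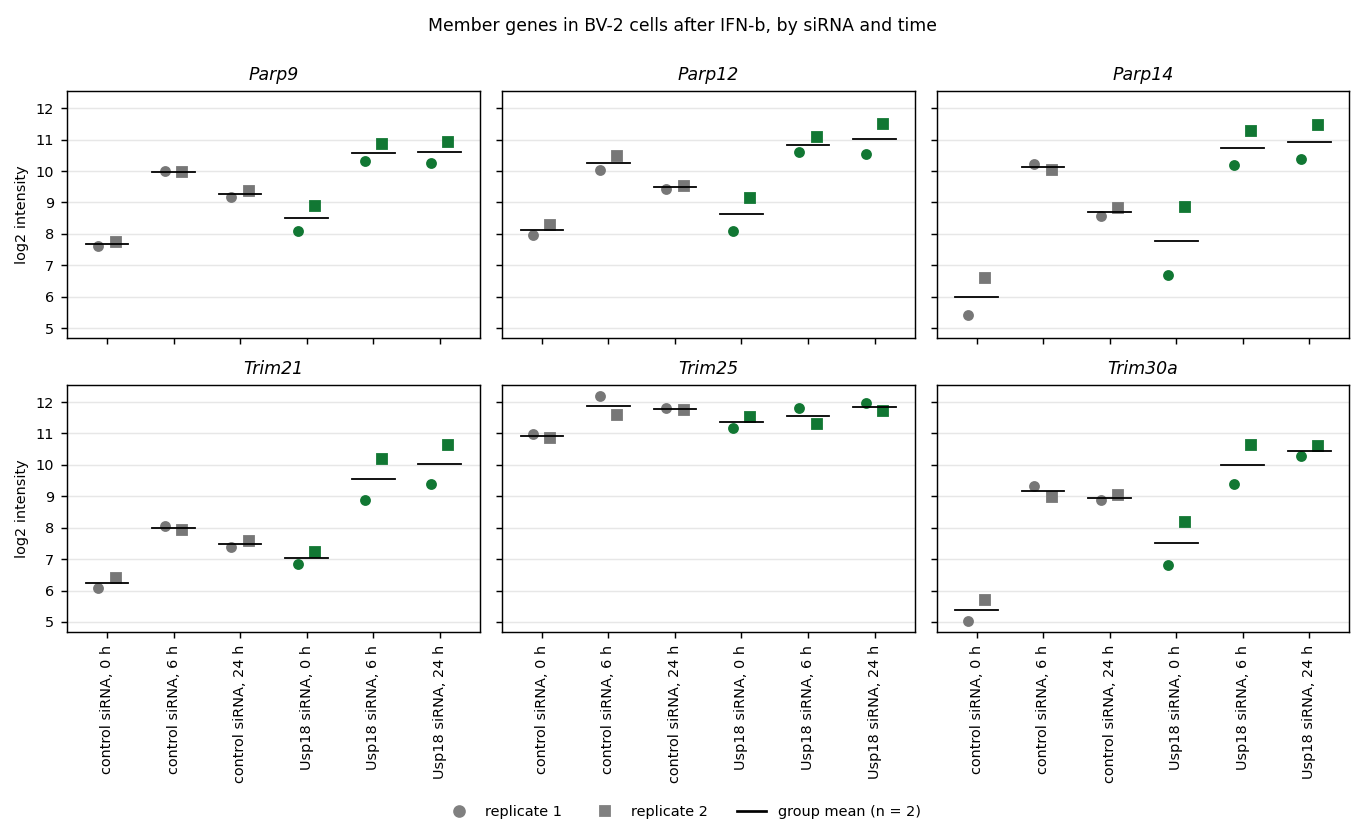
Log2 intensity (vertical axes) of the 6 members on the 12 BV-2 arrays, by siRNA and time of IFN-b. Circles are replicate 1, squares replicate 2, and black lines are group means of 2 arrays. Trim21 sits at 7.38 and 7.57 with control siRNA and at 9.40 and 10.64 with Usp18 siRNA after 24 h, whereas Trim25, by the probe set plotted, stays between 10.85 and 12.18 on all 12 arrays.

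Set against each other in a fit of all 36 arrays (8260 genes), the responses of WT microglia and of control BV-2 cells did not differ for any member, beside 0.0242% of all genes at 6 h and 0.0242% at 24 h. Trim30a had the largest difference at both times, -1.70 ± 0.84 at 6 h and -1.91 ± 0.84 at 24 h (95% interval -3.65 to -0.17, adjusted p = 0.969), with the smaller response in microglia. Its size rests on the untreated WT arrays of run 3: without the first, the array in doubt, it was -1.0 at 6 h and -1.22 at 24 h, and without the second -2.39 and -2.60, and it passed in none of these fits (lowest adjusted p = 0.407). Cell system and run cannot be told apart here.

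Ranked by group mean over the 18 groups, the 3 PARP genes and Trim30a had nearly the same order by the probe sets used in microglia. The other probe set of Trim30a put C61A cells at 24 h (11.31, SD 0.13) before KO cells at 6 h (11.21, SD 0.70). KO cells at 6 h were highest for Parp9 (11.85, SD 0.14), Parp12 (11.77, SD 0.11), Parp14 (11.68, SD 0.04) and Trim30a by the probe set used in microglia (11.50, SD 0.01), and untreated control BV-2 cells were lowest for all 4 (7.68, 8.12, 6.00 and 4.68). Neighbours at the top of the order lay close together, such as KO at 6 h (11.85) and KO at 24 h (11.63, SD 0.13) for Parp9, while untreated WT cells of run 1 (8.26, SD 0.22) stood far below WT cells at 24 h (10.76, SD 0.18). Trim21 was highest in KO cells at 24 h (11.66, SD 0.02) and 6 h (11.59, SD 0.37), followed by C61A cells at 24 h (10.89, SD 0.11), and treated WT cells of run 1 came after untreated KO cells (10.72, SD 0.42). By its other probe set untreated KO cells (9.40, SD 0.36) and WT cells of run 1 at 6 h (9.17, SD 0.07) came before C61A cells at 24 h (8.61, SD 0.17). Trim25, by the probe set used above, had another order: the 4 treated BV-2 groups (11.56 to 11.88) were highest, then KO cells at 24 h (11.40, SD 0.19), and untreated C61A cells (9.11, SD 0.20) were lowest. Its second probe set put KO cells at 24 h (10.99, SD 0.10) before BV-2 cells with Usp18 siRNA at 6 h (10.91, SD 0.21), and the third put KO cells at 24 h (9.43, SD 0.24) and 6 h (9.30, SD 0.60) highest of all, so that the lead of the BV-2 groups held for the first 2 of the 3.

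**Figure D5:**
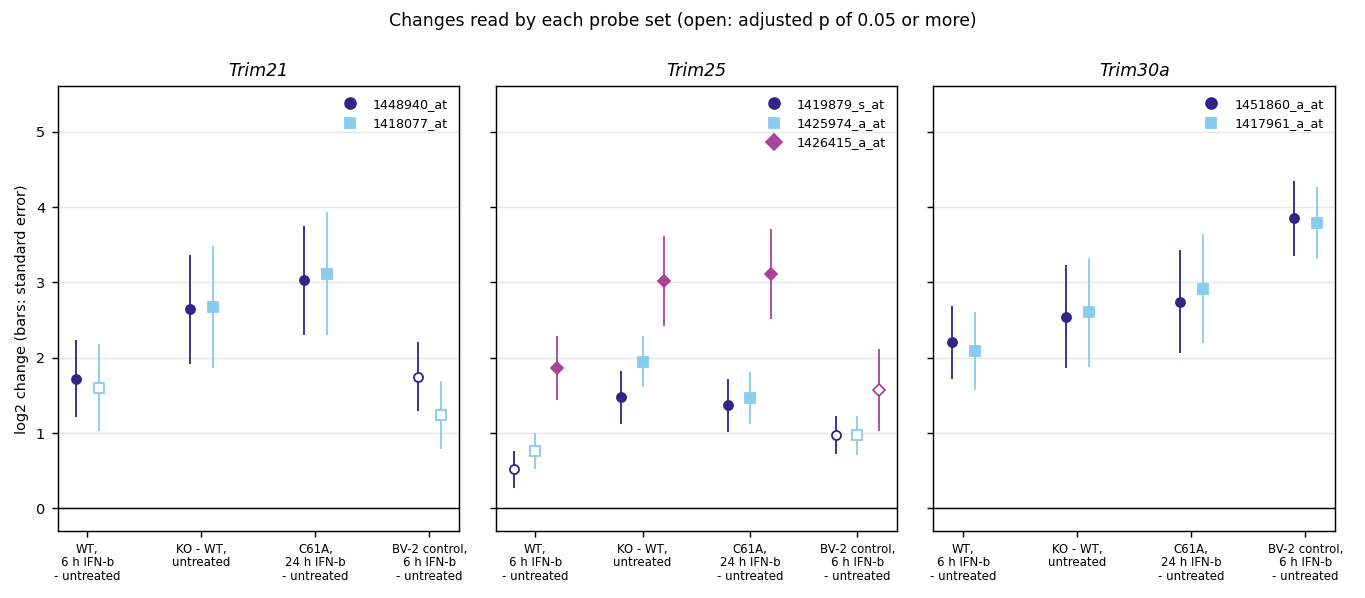
Log2 change read by each probe set of Trim21, Trim25 and Trim30a in 4 comparisons (vertical axis, bars are standard errors), from a fit over all kept probe sets; circles are the probe set used in microglia and squares and diamonds the others. Open symbols have an adjusted p of 0.05 or more. The 2 probe sets of Trim30a read 2.20 and 2.09 at 6 h in WT, while those of Trim25 read 0.52, 0.76 and 1.87.

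The 2 probe sets of Trim30a gave changes of close size in the comparisons plotted, and those of Trim25 differed in size. For Trim21 the second probe set read 1.60 ± 0.57 at 6 h in WT and did not pass (adjusted p = 0.0766), against 1.72 ± 0.51 by the first (adjusted p = 0.0396). It did not pass either for KO against WT at 24 h (2.06 ± 0.81, adjusted p = 0.0726) or with Usp18 siRNA at 6 h (2.00 ± 0.45, adjusted p = 0.0581), where the first did. In control BV-2 cells at 24 h the 2 read 0.60 ± 0.45 and 1.23 ± 0.45. For Trim25 the probe set used above and the second one read changes of 0.52 ± 0.25 and 0.76 ± 0.24 at 6 h in WT (adjusted p = 0.175 and 0.0507), and the third, chosen for no comparison above, read 1.87 ± 0.42 (adjusted p = 0.0126), in a fit over 12468 probe sets chosen after seeing the data. In untreated KO against WT cells the 3 rose by 1.47, 1.95 and 3.01, and at 24 h the third probe set alone passed (2.40 ± 0.60, adjusted p = 0.00965). It lay at 5.40 (SD 0.17) in untreated WT cells of run 1 and at 8.14 (SD 0.21) at 6 h, and it was above the array median on 20 of the 24 microglia arrays. In BV-2 cells the third probe set of Trim25 ran from 5.97 to 9.65, and at 24 h it read 7.44 and 7.77 with control siRNA and 8.09 and 9.65 with Usp18 siRNA, a difference of 1.27 ± 0.54 that did not pass (adjusted p = 0.161), where the first probe set read 0.06. Averaged over its probe sets, Trim25 rose by 1.05 at 6 h in WT (adjusted p = 0.0258). Probe sets whose names end in a_at or s_at can match several transcripts, and Trim30a has near copies, so its values are uncertain as to which copy was read. The probe set shared by Trim30d and Trim30a lay at 6.09 (SD 0.12) in untreated WT cells of run 1, at 9.64 (SD 0.02) at 6 h and at 9.19 (SD 0.99) in untreated KO cells.

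Over the 24 microglia arrays, which share genotypes, times and runs, the PARP genes and Trim30a followed each other at r = 0.979 to 0.991, Trim21 followed them at 0.932 to 0.957, and Trim25 correlated with the others at 0.804 to 0.899. In the 12 BV-2 arrays Trim25 and Trim21 correlated at 0.487, and the other pairs reached 0.988 (Parp9 and Parp12). Outside the members, the genes with the most similar pattern over the microglia arrays were Ifi47 (0.995), Ifi35 (0.993) and Irgm1 (0.991) for Parp12, Ifi47 (0.994), Irgm1 (0.990) and Tap1 (0.984) for Parp9, and Ifih1 (0.983), Ddx60 (0.982) and Irgm1 (0.982) for Parp14. For Trim30a they were Irgm1 (0.991), Ifi47 (0.990) and Ddx60 (0.985), for Trim21 Rbm43 (0.988), Tlr3 (0.981) and Mx2 (0.979), and for Trim25 Oas1c (0.935), Tmem140 (0.924) and C2 (0.920). Ifi47 and Irgm1 encode interferon-inducible GTPases, Tap1 a peptide transporter of antigen presentation, Ifih1 and Tlr3 sensors of double-stranded RNA, and Mx2 an antiviral GTPase.

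Most other TRIM genes tested were not called where the members were. Of 36 other TRIM genes on the array 22 were tested in microglia. At 6 h in WT 4 of them rose and 1 fell, with a median change of -0.11, beside 7.59% of all genes that rose. The 4 were Trim30d (2.66 ± 0.59), Trim34a (1.91 ± 0.52), Trim12a (1.50 ± 0.37) and Trim26 (1.15 ± 0.31), the first 3 of them neighbours of Trim30a in the TRIM cluster of chromosome 7, and Trim24, a nuclear receptor cofactor, fell by 1.15 ± 0.28. In untreated KO against WT cells Trim30d (3.72 ± 0.83), Trim34a (2.61 ± 0.73), Trim12a (2.05 ± 0.52) and Trim26 (1.63 ± 0.44) rose and Trim23 fell by 0.78 ± 0.25, beside 8.0% of all genes that rose. In C61A cells at 24 h 3 of the 22 rose, beside 5.46% of all genes. In control BV-2 cells at 6 h Trim12a (3.44 ± 0.29) and Trim34a (2.84 ± 0.49) did, beside 0.991% of all genes.

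Of the other PARP genes 8 were on the array and 7 were tested. Parp3, an ADP-ribosyltransferase of the DNA break response, rose at 6 h in WT (1.74 ± 0.42, adjusted p = 0.0151), as did Parp8 (1.09 ± 0.22). In untreated KO against WT cells Parp3 (2.88 ± 0.60) and Tiparp (1.66 ± 0.43), a target of the aryl hydrocarbon receptor, rose. In KO against WT cells at 24 h Parp3 (3.42 ± 0.60), Tiparp (2.31 ± 0.43) and Parp4 (0.79 ± 0.25) were higher. Parp1, the main PARP enzyme of DNA damage, was lower by a change of -1.97 ± 0.33 (adjusted p = 0.000933). Of the 7960 genes tested there, 903 rose and 1410 fell. In BV-2 cells with Usp18 siRNA, 24 h of IFN-b against untreated lowered Parp1 by 0.93 ± 0.21 (adjusted p = 0.0224). It raised Parp3 (1.51 ± 0.22), Parp4 (1.26 ± 0.37) and Parp8 (1.04 ± 0.24), where 474 of 7163 genes rose and 662 fell. Between the siRNAs at 24 h, Parp1 was not called.

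Among 22 partners and pathway genes of the members, 15 were tested in microglia. At 6 h in WT 9 rose and none fell, with a median change of 0.96, led by the transcription factors Irf7 (4.17 ± 0.76) and Stat2 (3.03 ± 0.62), the sensor Ifih1 (2.78 ± 0.67) and the ISG15-conjugating enzyme Ube2l6 (2.37 ± 0.60). In untreated KO against WT cells 9 rose and none fell, with Irf7 at 6.47 ± 1.08, Stat2 at 4.38 ± 0.88, Ifih1 at 3.59 ± 0.94 and Ube2l6 at 3.56 ± 0.85. At 24 h in C61A cells 7 of the 15 rose. In BV-2 cells 14 were tested: 5 rose at 6 h with control siRNA, with Stat2 at 3.05 ± 0.56, and 7 rose at 24 h with Usp18 siRNA, with Irf7 at 3.52 ± 0.60.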

How the data were processed

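Total RNA from 24 microglia arrays and 12 BV-2 arrays was read on an expression microarray with 22690 probe sets. The deposited values lay between 1.66 and 14.03 and were taken as log2 intensities as the authors deposited them, the scale being inferred from the range; the submitters' processing notes name affy, and the normalization is not given in the sources used here. Of the probe sets 20393 carry 1 gene symbol, 691 several and 1606 none. Probe sets above the array median on at least 2 arrays were kept, and where a gene had several, the kept one of highest mean stood for it. Gene models were fitted with limma 3.58.1 in R 4.3.3, separately for the microglia (residual df 12) and the BV-2 cells (residual df 6), with Benjamini-Hochberg adjustment over all genes tested, a threshold of 0.05 and moderated spread shared by all groups of a fit. A fit of all 36 arrays was used only to set WT microglia against BV-2 cells. The WT response is the mean over both runs. No 2 arrays held the same values (highest correlation 0.995), and the number of arrays limits the precision. The 6 members, the lists and the 3 arrays in doubt were chosen with earlier results of these data known. Likeness is Pearson's r over the 24 microglia arrays, with the 3 genes of highest r named per member. Of the list genes, the called ones of largest change were named. Deviations of same-numbered WT arrays from their group means correlated at 0.296 to 0.672 over time in each run. KO arrays did so at 0.685 to 0.811 and C61A arrays at 0.538 to 0.655. This was taken as pairing over time, which the main fits leave out. The block changed no call among the KO and C61A responses. Across genotypes same-numbered microglia arrays correlated at -0.561 to 0.331 and were not paired. Same-numbered BV-2 arrays correlated at 0.232 to 0.506 across the siRNAs in all 9 comparisons of groups; with 2 numbers and no label for a shared culture this was taken as a hint, and the blocked values stand beside the results. Alternatives were no filter, the mean of a gene's kept probe sets, a further quantile normalization, centring each array on its median, the replicate number or the culture as a block, no term for the run, each WT run alone, and fits without single arrays or without the arrays in doubt. The scripts were tested on simulated data.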

Additional observations from a re-analysis of the deposited data

Results flagged for a closer look

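In untreated WT microglia, 4 arrays over both runs, the first array of run 3 lay far above the other 3 for 5 members: 10.80 for Trim21, 11.04 for Trim30a, 11.22 for Parp9, 11.24 for Parp12 and 11.83 for Parp14, a gap to the nearest array that exceeded Dixon's 95% critical value. Usp18 lay at 12.97 on the same array and at 9.31 on its replicate. For Trim25 the second array of run 3 stood apart from the other 3 WT arrays of its time at 24 h (10.10, lower) and at 6 h (10.56, higher). Chance alone passes this limit in about 1 of 20 groups, and 18 groups of 4 WT arrays were examined.

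The effect of the KO exceeded the effect of C61A, each against WT of its own run, in untreated cells for every member by the test of the difference itself: by 4.83 for Parp14, 4.62 for Parp9, 4.34 for Parp12, 4.13 for Trim21, 3.82 for Trim30a and 2.24 for Trim25. Genotype and run change together in this comparison.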

How the results depend on the processing

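Counts here are member changes called out of 12 for each response (6 members at 6 h and 24 h) and out of 18 for each comparison of genotypes or siRNAs. With the replicate number within a run as a replicate block, 9 WT responses passed against 5 without it, 9 responses of BV-2 control cells against 5, and 5 differences between the siRNAs against 2. With the culture as a random block, 10 WT responses, 9 responses of BV-2 control cells and 1 difference between the KO and the WT response (Parp12 at 6 h) passed, against 5, 5 and 0. The block changed a few other single calls and moved no other count by more than 1.5 times; as the labels do not pair the numbers of different genotypes or siRNAs, the comparisons between them stand without it. Without a term for the run, which applies to the microglia only, 0 WT responses, 0 C61A responses and 2 KO differences passed, against 5, 6 and 7. Run 3 alone gave 0 WT responses. Without the 3 arrays in doubt 12 WT responses, 12 C61A responses, 1 KO response, 12 KO differences, 8 differences between the KO and the WT response and 5 responses with Usp18 siRNA passed, against 5, 6, 0, 7, 0 and 9. With no filter 1 difference between the siRNAs passed. Leaving out the 3 arrays in doubt leaves 1 array each in untreated WT of run 3, C61A at 6 h and Usp18 siRNA at 6 h. It also narrows the spread of the members by the choice of arrays, so the added calls are no independent support. Beyond that, the cause of these shifts was not tested. With 1 array left out at a time the counts ran from 2 to 12 for the WT response, 0 to 6 for the C61A response, 1 to 7 for KO against WT, 0 to 6 for C61A against WT, 0 to 6 for the KO effect minus the C61A effect, 0 to 4 for the response of BV-2 control cells, 0 to 10 for the response with Usp18 siRNA and 0 to 4 between the siRNAs. The other comparisons (KO response, KO minus WT response, C61A minus WT response, 24 h against 6 h, siRNA responses against each other, WT microglia against BV-2 cells) stayed at 0 in these fits. Of 40 called member changes, 280 of 314 fits with another setting kept the call and 0 turned its direction, and 81 of 204 fits with 1 array left out kept it. Of 158 uncalled ones, 35 of 1240 fits with another setting turned the sign and 59 passed, and 73 of 972 fits with 1 array left out turned the sign and 18 passed.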
